A study of Macaca mulatta with 17 samples.

Results

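The genes described here are 10 members of the tumor necrosis factor (TNF) and NF-κB inflammatory system of the fetal rhesus macaque uterus: the cytokines TNF, IL1B and IL6, the NF-κB subunits NFKB1, NFKB2 and RELB, the inhibitors NFKBIA and TNFAIP3, and the target genes ICAM1 and BIRC3. Each was matched to the probe whose description gives its symbol, with the brightest probe to be used where several exist. Each of the 10 had 1 such probe, so that 10 of the 20217 probes of the array are followed here. Their genes are 10 of 15888 distinct gene names that the array annotation and reference tables give.

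NF-κB is a family of dimeric transcription factors held in the cytoplasm by inhibitor proteins of the IκB group. Cytokines such as TNF and interleukin 1 bind receptors that activate the IκB kinases, the inhibitors are destroyed, and the freed dimers enter the nucleus. There they switch on cytokines, adhesion molecules and survival factors, and also their own inhibitors, which end the response. In the uterus this system is known for its part in parturition and infection and in the recruitment of leukocytes.

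RNA from individual fetal uteri was hybridized to 17 single-color arrays on 6 slides, each array from a different female fetus. All dams received a daily fruit treat, which carried deuterated bisphenol A (BPA) at 400 µg per kg per day for the BPA-exposed groups and the ethanol vehicle for the controls. Dams of the GD100 groups (gestational day 100; 5 BPA-exposed and 5 control arrays) were treated from day 50 to day 100 and delivered by caesarean section. Dams of the GD165 groups (3 BPA-exposed and 4 control arrays) were treated from day 100 until vaginal birth near day 165. Per the study's methods, fetuses were euthanized right after delivery and newborns within a day of it. Animals of both ages are called fetuses here. Age, delivery, any time alive after birth and the window of treatment thus changed together and cannot be told apart. Uteri of stillborn fetuses in the GD165 groups were left out by the authors, and the RNA came from a sagittal piece that ran from fundus to cervix. The tissue is a mixture of epithelium, stroma, muscle, vessels and leukocytes, and in such bulk RNA fewer cells of a type and less RNA per cell cannot be told apart. Levels below are log2 processed signals after the arrays were brought to a common 75th percentile of 12.62. They compare arrays for 1 probe and cannot rank genes against each other.

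Between 83.8 and 89.0% of spots were well above background on each array, a call the scanning software makes against the local background. The probes of 9 of the 10 genes were well above background on all 17 arrays. IL6 was well above background on 15 of 17, failing on GD100 control replicate 5 and GD100 BPA-exposed replicate 3, and no probe of the 10 was saturated. Of 10 uterine tissue genes, PGR was well above background on no GD100 array, and each of the others, among them ESR1, HOXA10, HOXA11 and the muscle genes DES, MYH11 and ACTA2, was so on at least 1 array of every group.

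The probes are 60 bases long, and the last 30 bases are shown for the cytokines and for the inhibitor and the subunit that passed the test below, as these stretches are what the levels report on. Capitals mark AATAAA, the usual polyadenylation signal.
TNF: tattcagtggcgagaAATAAAgtttgctta
IL1B: atcaagtcctttacttaagactgcaaatat
IL6: gaaagtgtaggcttacctcaAATAAAtggc
NFKBIA: gtttgtgttacccttctgtaaatggtgtac
RELB: taggttggttggtcagagtcttcccaataa
AATAAA was present in the probes of 2 of the 10 genes, TNF and IL6, on the strand as the files write it, and in 12.8% of all probes. Its reverse complement TTTATT was in 0 of the 10 and in 4.67% of all probes. The files name the member probes through human transcripts. The chromosome in their position column was that of the rhesus gene for 2 of the 8 members that have a position, so no positions are given.

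The comparison of GD165 with GD100 controls is the one in which TNF and several of its network partners drew attention in this study, and the genes are taken here as chosen by its results, that is by the control levels at both ages. Its values are therefore a description. All 10 genes were higher on average at GD165 than at GD100 in controls, by a median of 0.60 on the log2 scale against 0.0046 over all probes, of which 50.5% were higher. In limma's fit 5 of the 10 lay past the Benjamini-Hochberg adjusted p of 0.01 (TNF, IL6, NFKBIA, RELB and ICAM1), where 11.5% of all probes did and 6.32% did so on the higher side. The levels of the age groups did not overlap in 8 of the 10 genes, where 9.51% of all probes were without overlap and higher at GD165. ICAM1 lay just inside the threshold, and the nearest gene outside it was IL1B, with differences of 0.57 and 0.93.

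BPA-exposed fetuses give the same pair of ages in animals that share no array with the controls, so the test was read there. The spread was estimated over all 17 arrays, so the control levels enter its standard errors and p-values. The genes were also listed with earlier results of these data known, so the test is not fully independent of their choice. In GD165 against GD100 BPA-exposed fetuses all 10 genes were again higher on average, with a median of 0.57 against −0.047 over all probes, of which 44.7% were higher. TNF, IL1B, RELB and NFKBIA rose at the adjusted p of 0.01, which makes 4 of 10 genes where 9.68% of all probes passed and 4.82% passed on the higher side. IL6, ICAM1, NFKB1, TNFAIP3, BIRC3 and NFKB2 did not pass. With the spread taken from the compared groups only, IL1B and RELB did not pass either (limma adjusted p = 0.0142 and 0.0222). Of all calls 49.8% were on the higher side, and 76.2% were without scaling between arrays, where the median of all probes was 0.13. The levels did not overlap in 8 of the 10 genes, where 11.7% of all probes were without overlap and higher. TNF, NFKBIA and RELB lay past the threshold in both comparisons, as 3.59% of all probes did on the higher side, and nothing is read from this since the control comparison is taken to have chosen the genes.

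**Figure D1:**
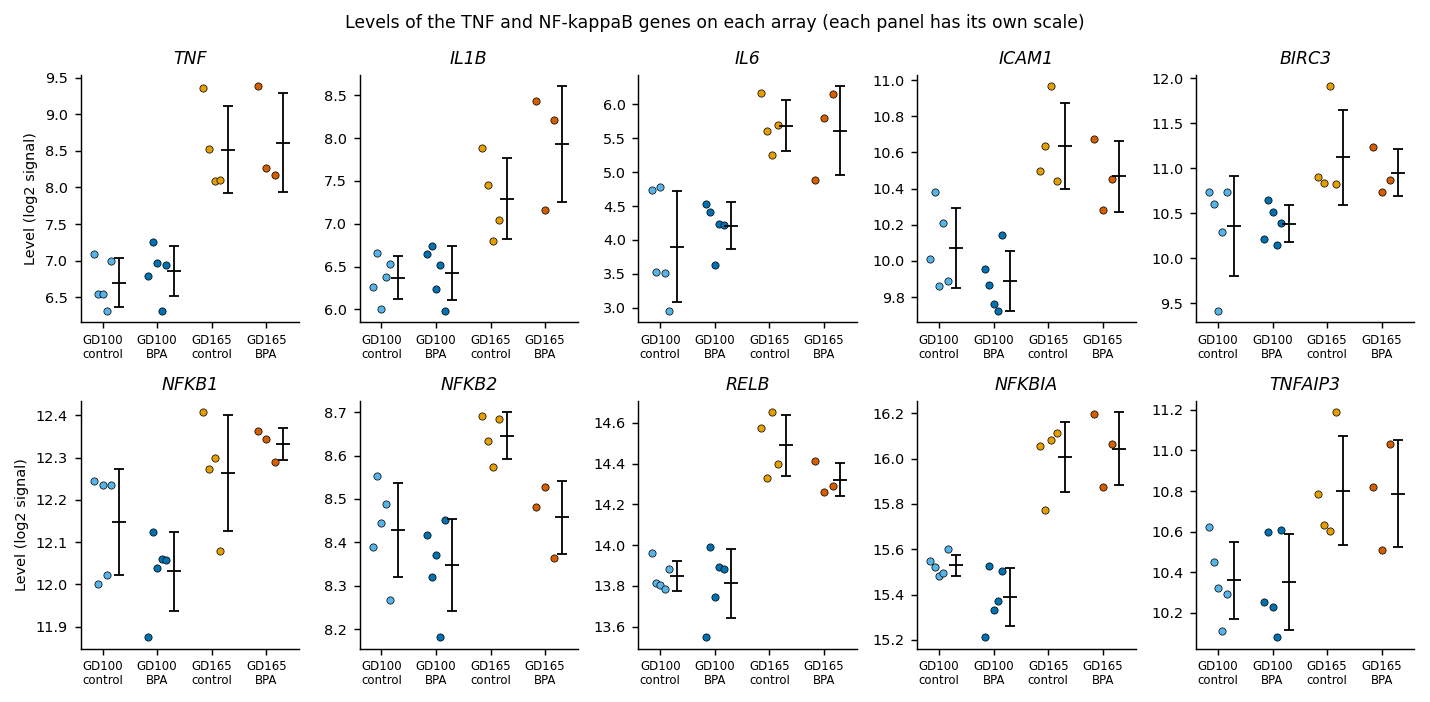
Level of each gene on each of the 17 arrays (log2 signal, scaled to a common 75th percentile), by group, with the group mean and SD beside the points. TNF lies at 6.31 to 7.25 on the GD100 arrays and at 8.08 to 9.39 on the GD165 arrays, while BPA-exposed and control points of the same age lie in overlapping ranges in every panel but NFKB2 at GD165.

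Among the cytokines, TNF, the founding ligand of its family and a potent activator of NF-κB, was higher at GD165 in both sets. In GD100 controls its levels were 7.09, 6.54, 6.54, 6.31 and 6.99. In GD165 controls they were 9.36, 8.52, 8.08 and 8.11. The lowest GD165 control lay above the highest GD100 control, and replicate 1 at GD165 lay above the other GD165 controls. The difference was 1.82 ± 0.30 (SE), which is 3.54-fold. In BPA-exposed fetuses the levels were 6.79, 7.25, 6.96, 6.32 and 6.94 at GD100 and 9.39, 8.26 and 8.17 at GD165. Again the ages did not overlap, and again a single GD165 animal, replicate 3, stood above the others of its group. TNF was 3.38-fold higher at GD165 (log2 difference 1.76 ± 0.33 SE, limma adjusted p = 0.0019). Without GD165 BPA-exposed replicate 3 the difference was 1.37 and the adjusted p 0.0115.

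IL1B encodes interleukin 1 beta, made mainly by activated myeloid cells. Its levels were 6.26, 6.65, 6.01, 6.38 and 6.53 in GD100 controls and 7.88, 7.46, 6.80 and 7.04 in GD165 controls. In BPA-exposed fetuses they were 6.65, 6.74, 6.24, 6.52 and 5.98 at GD100 and 8.43, 7.16 and 8.21 at GD165. The ages did not overlap in either set, though GD165 control replicate 5 lay 0.14 above the highest GD100 control. The difference was 0.93 ± 0.26 (SE) in controls. It was 1.51 ± 0.29 (SE), or 2.84-fold, in BPA-exposed fetuses (limma adjusted p = 0.0023), and the adjusted p was 0.0149 without GD165 BPA-exposed replicate 3 and 0.0145 without replicate 5.

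IL6, a cytokine that NF-κB induces and that drives the acute phase response, was the gene with arrays not well above background. In GD100 controls its levels were 4.74, 3.53, 4.78, 3.51 and 2.95, and in GD165 controls 6.17, 5.61, 5.26 and 5.70. In BPA-exposed fetuses they were 4.53, 4.41, 3.64, 4.24 and 4.22 at GD100 and 4.88, 5.81 and 6.16 at GD165. The ages did not overlap in either set, and the SD among GD100 controls, 0.82, was the widest of the 4 groups. The difference was 1.78 ± 0.37 (SE) in controls. In BPA-exposed fetuses it was 1.41 ± 0.40 (SE) and did not pass (limma adjusted p = 0.0220), although it did with quantile normalization (adjusted p = 0.0095), without scaling (adjusted p = 0.0081) and with error weights (adjusted p = 0.0094). With normexp background correction the IL6 difference was smaller, at 0.53 in controls and 0.36 in BPA-exposed fetuses (limma adjusted p = 0.0835 in the latter), and without GD165 control replicate 1 IL6 was no longer past the threshold in controls (1.62, limma adjusted p = 0.0124).

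**Figure D2:**
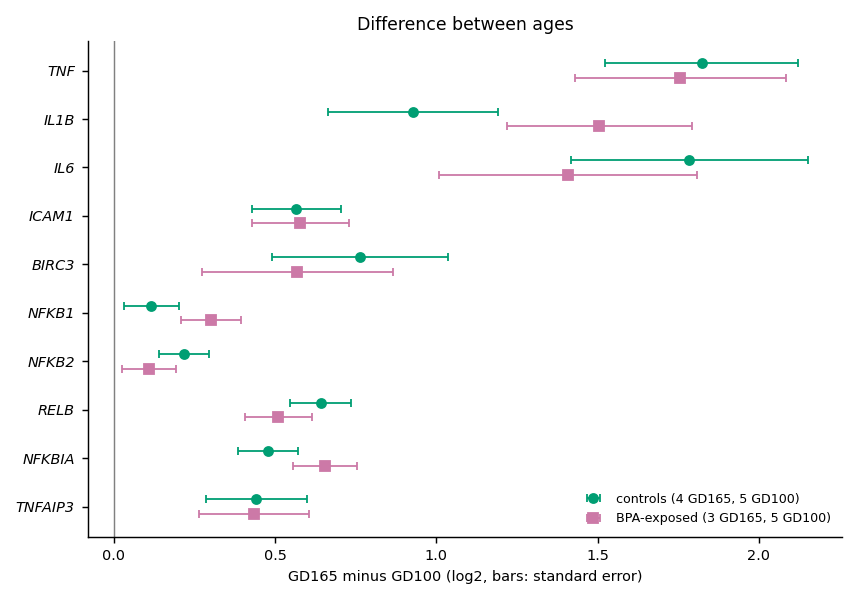
Difference between GD165 and GD100 (log2) for each gene in controls (circles) and in BPA-exposed fetuses (squares), with standard errors from limma. All points lie above 0, from 0.11 for NFKB2 to 1.82 for TNF, and the control values are a description because the genes were listed with them known.

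Of the NF-κB subunits, RELB, the transactivating subunit of the non-canonical pathway, rose. Its levels were 13.96, 13.81, 13.80, 13.79 and 13.88 in GD100 controls and 14.58, 14.33, 14.65 and 14.40 in GD165 controls. In BPA-exposed fetuses they were 13.55, 13.99, 13.74, 13.89 and 13.88 at GD100 and 14.41, 14.26 and 14.29 at GD165. Every GD165 array lay above every GD100 array, across exposures as well. The difference was 0.64 ± 0.09 (SE) in controls and 0.51 ± 0.10 (SE) in BPA-exposed fetuses (1.42-fold, limma adjusted p = 0.0033). Leaving out any 1 of the GD165 BPA-exposed animals moved the adjusted p past 0.01, to between 0.0108 and 0.0177.

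NFKB2, the precursor that pairs with RELB and is processed in the same pathway, differed less. It ranged from 8.27 to 8.55 in GD100 controls and from 8.57 to 8.69 in GD165 controls, without overlap. In BPA-exposed fetuses it ranged from 8.18 to 8.45 at GD100 and from 8.36 to 8.53 at GD165, with overlap. The differences were 0.22 ± 0.08 (SE) and 0.11 ± 0.08 (SE), and the latter did not pass (limma adjusted p = 0.383). NFKB1, the precursor of the canonical DNA-binding subunit, showed the reverse arrangement. Its ages overlapped in controls, at 12.00 to 12.24 and 12.08 to 12.41, and did not in BPA-exposed fetuses, at 11.87 to 12.12 and 12.29 to 12.36. Its difference there was 0.30 ± 0.09 (SE) and did not pass (limma adjusted p = 0.0306), and in controls it was 0.12 ± 0.08 (SE).

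Of the inhibitors, NFKBIA, which encodes IκBα and is itself an NF-κB target, rose by a small amount with little spread. Its levels were 15.55, 15.52, 15.48, 15.50 and 15.60 in GD100 controls and 16.06, 15.78, 16.08 and 16.11 in GD165 controls. In BPA-exposed fetuses they were 15.21, 15.53, 15.33, 15.37 and 15.50 at GD100 and 16.20, 15.87 and 16.06 at GD165. No GD165 array fell to the level of any GD100 array. The difference was 0.48 ± 0.09 (SE) in controls and 0.65 ± 0.10 (SE) in BPA-exposed fetuses, the latter 1.57-fold (limma adjusted p = 5.2e-04). NFKBIA was the 1 gene whose call in BPA-exposed fetuses remained whichever animal was left out.

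TNFAIP3, a ubiquitin-editing enzyme that shuts off TNF receptor signaling, overlapped between ages in both sets. Its GD100 levels were 10.11 to 10.62 in controls and 10.08 to 10.61 in BPA-exposed fetuses, and its GD165 levels were 10.61 to 11.19 and 10.51 to 11.03. The differences were 0.44 ± 0.16 (SE) in controls and 0.43 ± 0.17 (SE) in BPA-exposed fetuses, where it did not pass (limma adjusted p = 0.0818).

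The targets ICAM1, an adhesion molecule that binds leukocyte integrins, and BIRC3, an inhibitor of apoptosis that also acts in TNF receptor complexes, did not pass in BPA-exposed fetuses. ICAM1 levels were 10.01, 10.38, 9.86, 10.21 and 9.89 in GD100 controls and 10.50, 10.63, 10.97 and 10.44 in GD165 controls. In BPA-exposed fetuses they were 9.96, 9.86, 9.76, 9.72 and 10.14 at GD100 and 10.67, 10.28 and 10.45 at GD165. The ages did not overlap in either set, and the nearest animals were 0.060 apart in controls and 0.14 apart in BPA-exposed fetuses. In controls ICAM1 stayed past the threshold in 8 of 14 other settings. It did so with 4 of the 17 animals left out in turn (limma adjusted p from 0.0044 to 0.0280). The settings include a looser adjusted p threshold, under which a call cannot be lost. ICAM1 differed by 0.57 ± 0.14 (SE) in controls and by 0.58 ± 0.15 (SE) in BPA-exposed fetuses (limma adjusted p = 0.0140). BIRC3 ranged from 9.42 to 10.74 in GD100 controls and from 10.82 to 11.92 in GD165 controls, and from 10.15 to 10.65 and 10.74 to 11.24 in BPA-exposed fetuses. Its differences were 0.76 ± 0.27 (SE) and 0.57 ± 0.30 (SE), with a limma adjusted p of 0.187 in the latter.

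Slides held unequal sets of arrays, and the slide bore on how firmly these calls stood. In BPA-exposed fetuses both ages met on slide 2 only, with 1 array each. There TNF was higher at GD165 by 1.23, IL1B by 2.23, IL6 by 1.94, NFKBIA by 0.56 and RELB by 0.41, while NFKB2 was lower, at −0.09. Among controls both ages met on slides 3 and 5, again with 1 array of each, and all 10 genes were higher at GD165 on each of them, TNF by 1.98 and 2.37. With slide as a random block 4 members passed in BPA-exposed fetuses, as in the fit without it. With slide as a fixed block 0 passed, with adjusted p values of 0.0118 for NFKBIA, 0.0353 for RELB, 0.0569 for IL1B and 0.0596 for TNF, while 512 of all probes did and TNF's difference was 1.24. GD165 control replicate 5 was alone on slide 4 and adds nothing to that fit.

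Whether BPA altered these genes was tested at each age, against the same control levels that are taken as behind the choice of the genes, and so was the difference of the age changes. At GD100, 0 of 10 members passed, 0 had an unadjusted p under 0.05 and 0 were without overlap between exposures, and over all probes 0 (0.0%) passed, 3.79% had an unadjusted p under 0.05 and 0.782% were without overlap. The differences of the members, BPA-exposed minus control, ran from −0.18 for ICAM1 to 0.31 for IL6, with a median of −0.022. The 95% interval for TNF was −0.45 to 0.76, that for RELB −0.23 to 0.15 and that for NFKBIA −0.33 to 0.045. The interval for TNF reached 1.69-fold higher in BPA-exposed fetuses, so that differences up to that size lie within the error.

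At GD165, 0 of 10 members passed limma's test, and 1, NFKB2, had an unadjusted p under 0.05, a share that was 8.61% over all probes, of which 0 (0.0%) passed the adjusted threshold. NFKB2 lay at 8.48, 8.53 and 8.36 in BPA-exposed fetuses and at 8.69, 8.63, 8.57 and 8.69 in controls. The exposures did not overlap for this gene, as for 5.24% of all probes on the lower side, and its difference was −0.19 ± 0.09 (SE, limma adjusted p = 0.579). IL1B had the largest difference in size, 0.64 ± 0.30 (SE, limma adjusted p = 0.579), with a 95% interval of −0.0036 to 1.28 and overlapping groups. On slide 5, where both exposures met at GD165, IL1B was at −0.089 and NFKB2 at −0.19. The 95% interval was −0.64 to 0.82 for TNF, −0.96 to 0.82 for IL6, −0.40 to 0.062 for RELB and −0.19 to 0.26 for NFKBIA.

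**Figure D3:**
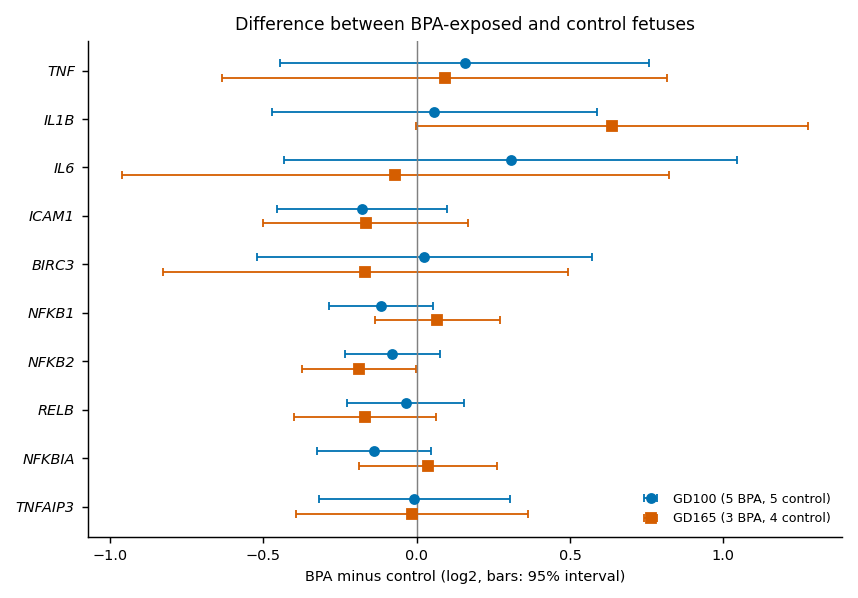
Difference between BPA-exposed and control fetuses (log2) for each gene at GD100 (circles) and at GD165 (squares), with 95% intervals from limma. All GD100 intervals include 0, and at GD165 the interval of NFKB2 ends just below 0 at −0.0021 and that of IL1B begins at −0.0036.

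The difference of the age changes between exposures, which is also the difference of the BPA effects between ages, passed for 0 of 10 members and 0.0% of all probes, and the smallest limma adjusted p was 0.753, for IL1B. For IL1B the age change was larger in BPA-exposed fetuses by 0.58, with a 95% interval of −0.25 to 1.41. For TNF the age changes differed by −0.066, with an interval of −1.01 to 0.88.

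The pathway was followed further through 86 measured genes of a list of 91, arranged as ligands, receptors, adaptors and kinases, subunits, inhibitors and targets. In controls 11 rose and 0 fell from GD100 to GD165 at the adjusted p of 0.01, and in BPA-exposed fetuses 9 rose and 2 fell. Among all probes 5.2% fell in controls and 4.86% in BPA-exposed fetuses, beside the shares given above for those that rose. The median difference was 0.18 in controls and 0.14 in BPA-exposed fetuses, against 0.0046 and −0.047 over all probes. The list was not picked for how its genes moved, though it was drawn up with earlier results of these data known. Of 22 adaptors and kinases 1 rose in each set, near the share of all probes, 6.32% in controls and 4.82% in BPA-exposed fetuses. These were IRAK2 in controls (0.91, limma adjusted p = 0.0076) and IKBKB, the main IκB kinase of the canonical pathway, in BPA-exposed fetuses (0.49, limma adjusted p = 0.0064). With each of the 17 animals left out in turn, the IRAK2 call held in 6 cases and the IKBKB call in 11.

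TNFSF10, the death ligand TRAIL, had the largest difference among the ligands and rose in both sets. It ranged from 9.90 to 10.33 in GD100 controls and from 11.56 to 12.92 in GD165 controls, and from 9.87 to 10.33 and 12.01 to 12.41 in BPA-exposed fetuses. The difference was 2.08 ± 0.22 (SE, limma adjusted p = 2.2e-05) in controls and 1.98 ± 0.24 (SE, limma adjusted p = 1.1e-04) in BPA-exposed fetuses. The nearest animals of the ages stood 1.23 and 1.68 apart. LTB, a subunit of the membrane lymphotoxin that activates the non-canonical pathway, rose by 1.26 in controls (limma adjusted p = 0.0023) and differed by 1.04 in BPA-exposed fetuses (limma adjusted p = 0.0143). TNFSF14 rose by 1.02 in controls (limma adjusted p = 0.0083) and differed by 0.49 in BPA-exposed fetuses (limma adjusted p = 0.208). Over 14 other settings its difference ran from 0.38 to 1.13 in controls, where the call held in 10. These include the looser adjusted p threshold, which cannot lose a call. In BPA-exposed fetuses the difference of TNFSF14 ran from 0.027 to 0.68. Of 9 ligands 3 rose in controls and 1 in BPA-exposed fetuses, where 6.32% and 4.82% of all probes did.

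Of 13 receptors 3 rose in controls and 4 in BPA-exposed fetuses, and none (0) fell. Among all probes 6.32% rose in controls and 4.82% in BPA-exposed fetuses. Both receptor counts include IL1R1, which was mostly not above background at GD100. TNFRSF12A, the receptor for TWEAK, rose by 1.11 in controls and by 1.39 in BPA-exposed fetuses (limma adjusted p = 0.0010 and 5.4e-04). TLR3, a sensor of double-stranded RNA, rose by 1.02 and 1.17 (limma adjusted p = 0.0020 and 0.0018), and with normexp background correction TLR3 differed by 0.30 and 0.19, without passing in BPA-exposed fetuses (limma adjusted p = 0.0898). IL1R1, which transmits the interleukin 1 signal, was well above background on 1 of 5 GD100 control arrays and on 0 of 5 GD100 BPA-exposed arrays, and on all GD165 arrays. In controls the processed signals differed by 1.93 (limma adjusted p = 5.4e-04), a value that rests on GD100 signals mostly not above background. Among BPA-exposed fetuses it was at least 1.49-fold higher at GD165 than the lowest signal called above background at GD100, a bound that carries no test. The limma adjusted p of 0.0033 belongs to the processed signals, which at GD100 were not above background. With normexp background correction IL1R1 differed by 0.33 in controls and by 0.13 in BPA-exposed fetuses, where it did not pass (limma adjusted p = 0.279). TNFRSF1B, the inducible TNF receptor of leukocytes and endothelium, rose by 0.77 in BPA-exposed fetuses (limma adjusted p = 9.98e-04) and differed by 0.42 in controls (limma adjusted p = 0.0200). TNFRSF1A, which is expressed on most cells, differed by 0.13 in BPA-exposed fetuses and by 0.25 in controls, without passing.

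**Figure D4:**
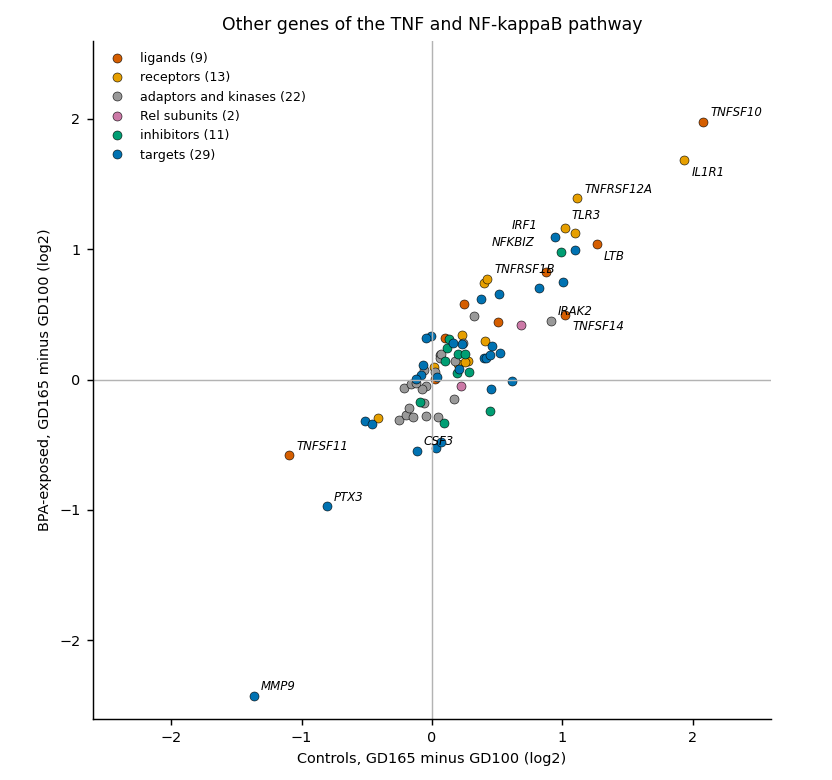
Age difference (GD165 minus GD100, log2) of the 86 other pathway genes in controls (horizontal) and in BPA-exposed fetuses (vertical), which share no arrays, colored by role. The ligand TNFSF10 lies at the upper right beside the receptor IL1R1, whose position rests on GD100 signals mostly not above background, most of the 22 adaptors and kinases lie near 0, and the targets MMP9 and PTX3 lie at the lower left.

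The remaining subunits divided. REL, the lymphoid member of the family, rose by 0.68 in controls (limma adjusted p = 0.0066) and differed by 0.42 in BPA-exposed fetuses (limma adjusted p = 0.103). RELA, the main transactivating partner of NFKB1, did not pass in either set, at 0.22 and −0.049, and the sign of the latter turned without scaling. Of 11 further genes listed under inhibitors 1 rose in each set, where 6.32% of all probes rose in controls and 4.82% in BPA-exposed fetuses. This gene was NFKBIZ, a nuclear IκB protein induced by interleukin 1. It rose by 0.99 in controls (limma adjusted p = 0.0018) and by 0.98 in BPA-exposed fetuses (limma adjusted p = 0.0041). These levels do not show whether its product inhibits or activates in this tissue. NFKBIB was at 0.20 and 0.20, NFKBIE at −0.089 and −0.17 and BCL3 at 0.091 and −0.33, and none of these passed.

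Of 29 further targets 2 rose in controls and 2 rose and 2 fell in BPA-exposed fetuses, where among all probes 6.32% rose in controls and 4.82% rose and 4.86% fell in BPA-exposed fetuses. IRF1, a transcription factor induced by TNF and interferons, rose by 0.94 ± 0.11 (SE, limma adjusted p = 4.9e-05) in controls and by 1.10 ± 0.12 (SE, limma adjusted p = 7.2e-05) in BPA-exposed fetuses. BCL2L1, an inhibitor of apoptosis, rose by 0.52 in controls (limma adjusted p = 8.6e-04) and differed by 0.21 in BPA-exposed fetuses (limma adjusted p = 0.150). GADD45B rose by 0.62 in BPA-exposed fetuses (limma adjusted p = 0.0057) and differed by 0.37 in controls (limma adjusted p = 0.0482). CSF3, the growth factor of granulocytes, fell by 0.54 in BPA-exposed fetuses (limma adjusted p = 0.0053) and was at −0.12 in controls. PTX3, named after its values were seen, fell by 0.97 in BPA-exposed fetuses (limma adjusted p = 0.0094) and was at −0.81 in controls (limma adjusted p = 0.0146). MMP9, also named so, had the lowest differences of the targets, −1.37 in controls and −2.42 in BPA-exposed fetuses, without passing. In BPA-exposed fetuses it ranged from 11.18 to 12.78 at GD100 and from 8.87 to 10.68 at GD165, without overlap. Its ages overlapped in controls. CXCL8, the neutrophil chemokine that NF-κB induces strongly in many tissues, was well above background on no array.

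Between BPA-exposed and control fetuses 0 of the 86 pathway genes passed at either age. The smallest limma adjusted p was 0.9999 at GD100 and 0.483 at GD165. An unadjusted p under 0.05 was found for 1 of the 86 at GD100 and for 5 at GD165, against 3.79% and 8.61% of all probes, with median differences of −0.0035 and −0.029.

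Gene lists for other cells and states were read on the same arrays, and their part in the differences of the TNF and NF-κB genes was not tested. The mean level of 12 macrophage genes was 9.76 to 10.47 in GD100 controls and 10.05 to 10.50 in GD100 BPA-exposed fetuses. At GD165 it was 10.31 to 10.93 in controls and 10.44 to 11.14 in BPA-exposed fetuses. In controls 10 of the 12 were higher at GD165, where 50.5% of all probes were, and 1 passed, LYZ, which rose by 1.99. In BPA-exposed fetuses 11 were higher, where 44.7% of all probes were, and again LYZ passed (1.66). CD14 differed by 0.71 and 0.32 and CSF1R by −0.014 and 0.27, without passing. CD163 was well above background on 1 of 5 GD100 control arrays and on no array of the other groups. It gives no reading at either age, though it is counted among the 12 and enters their mean.

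Of 12 lymphocyte and natural killer cell genes 1 rose in each set, the granule enzyme GZMB (1.78 and 2.09), while CD3D and KLRD1 were well above background on no array. Of these genes 12 of 12 were higher at GD165 in controls and 6 of 12 in BPA-exposed fetuses, against 50.5% and 44.7% of all probes. The median differences were 0.39 and 0.053. CD3D and KLRD1 are counted as higher in both sets, though they give no reading. Of 7 neutrophil genes 2 rose in controls, FCGR3B (1.74) and ELANE (2.26), and 1 in BPA-exposed fetuses, FCGR3B (1.43). In controls 6 of the 7 were higher at GD165, with a median of 0.90, where 50.5% of all probes were higher. In BPA-exposed fetuses 5 of the 7 were lower, with a median of −0.44, where 44.7% of all probes were higher. MPO, lower in both sets, was well above background on 2 of 5 GD100 BPA-exposed arrays and on no array of the other groups. The difference of the age changes between exposures passed for 0 of the 7 (smallest limma adjusted p = 0.520). The mean of the neutrophil list overlapped between the ages in both sets, at 6.14 to 7.42 and 7.19 to 8.24 in controls and at 6.53 to 7.75 and 6.81 to 7.44 in BPA-exposed fetuses. Of 10 endothelial genes 1 rose in controls, VWF (1.30), and 2 in BPA-exposed fetuses, VWF (1.37) and ESAM (0.54). For each of these cell lists the calls are to be read beside the 6.32% of all probes that rose in controls and the 4.82% in BPA-exposed fetuses.

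The immediate early genes respond to stimulation within minutes and need no new protein. Of 10 immediate early genes 3 rose in controls, ATF3, FOSB and ZFP36, and 4 in BPA-exposed fetuses, ATF3, DUSP1, JUN and ZFP36, with median differences of 0.86 and 1.15. Among all probes 6.32% rose in controls and 4.82% in BPA-exposed fetuses. ZFP36 encodes a protein that destabilizes TNF messenger RNA, and it rose by 0.93 in controls and 0.95 in BPA-exposed fetuses. The mean of the list lay at 10.56 to 11.47 in GD100 controls and 11.07 to 12.01 in GD165 controls, and at 10.59 to 11.09 and 11.42 to 11.85 in BPA-exposed fetuses. These ranges overlapped between the ages in controls and did not in BPA-exposed fetuses. Of 8 measured glucocorticoid-responsive genes 2 rose and 1 fell in controls, and 3 rose and 1 fell in BPA-exposed fetuses. The same shares of all probes that rose apply, and 5.2% fell in controls and 4.86% in BPA-exposed fetuses. ZBTB16 rose in both sets (3.04 and 2.70), and so did CEBPD (0.85 and 0.85), which is also a target of inflammatory cytokines. The lowest differences of this list were −1.17 in controls and −1.23 in BPA-exposed fetuses. Of the 8 genes 2 were lower at GD165 in controls and 3 in BPA-exposed fetuses.

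**Figure D5:**
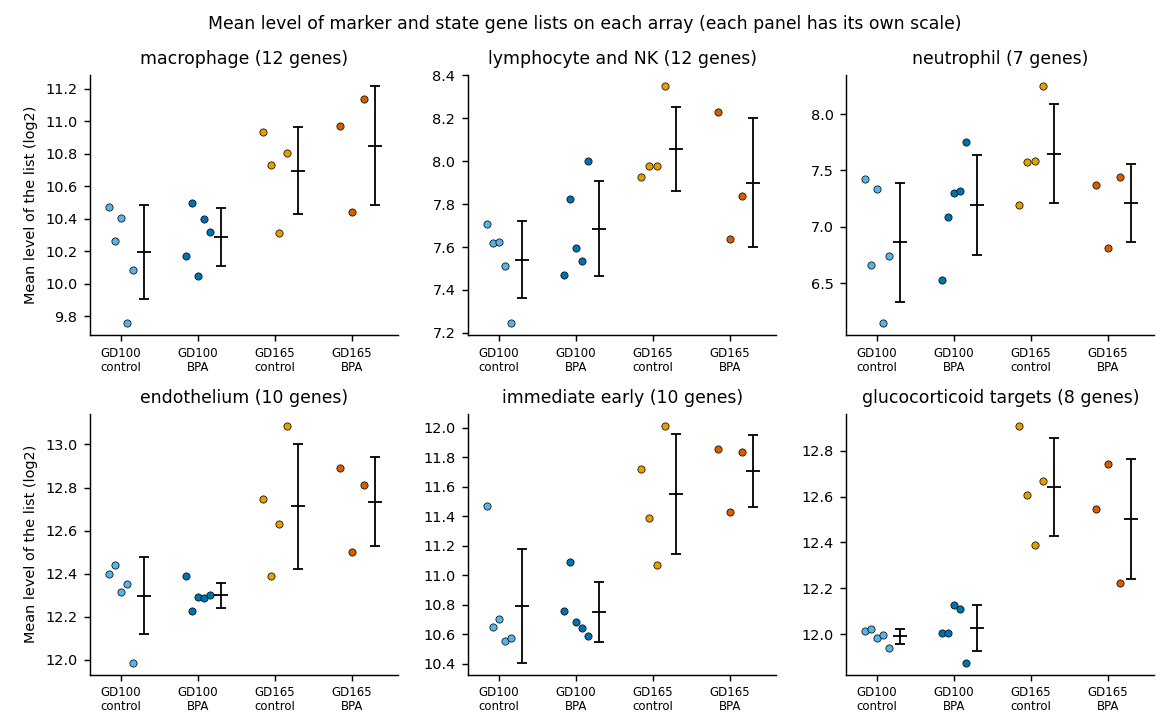
Mean level (log2 signal) of 6 gene lists on each of the 17 arrays, by group, with the group mean and SD beside the points. The glucocorticoid list lies at 11.88 to 12.13 on the GD100 arrays and at 12.22 to 12.91 on the GD165 arrays without overlap, while the neutrophil list overlaps between ages. The glucocorticoid mean includes ZBTB16, whose differences of 3.04 and 2.70 were the highest of that list.

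Within groups the members were compared over the 17 arrays after each group's mean was taken away, as a description. Of the 45 pairs of members 31 had a Pearson r above 0. The highest was that of NFKBIA and RELB, 0.76, followed by NFKB1 with RELB (0.66) and NFKBIA with TNFAIP3 (0.58), and the lowest that of IL6 and BIRC3 (−0.53). TNF had an r of 0.53 with IL1B and 0.56 with NFKB1. All points share the scaling of their array, and the number of animals is small.

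Among 13400 other named genes well above background on all 17 arrays, those with within-group patterns most like TNF were NICE-4 (r = 0.83), TRAPPC6B (0.83) and UBE2D2 (0.79). For NFKBIA they were PRRG1 (0.90), MTARC2 (0.90) and ARPC1B (0.88), and for RELB the ubiquitin-like gene UBD (0.86), PRDM4 (0.85) and B4GALT1 (0.82). For IL1B they were FLJ12985 (0.81), ZNF26 (0.80) and the nucleotide receptor P2RY6 (0.79), and for IL6 ENPP1 (0.85), the prostaglandin receptor PTGER3 (0.84) and PRSS11 (0.83). For ICAM1 they were FOXP3 (0.90), CBX5 (0.88) and RTN4R (0.86). For each member these are the 3 highest of 13400 values over 17 arrays.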

How the data were processed

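Total RNA of each uterus was labeled with Cy3 and read on rhesus macaque 1-color arrays. Per the labels and the study's methods, the authors read the spots with Agilent Feature Extraction 9.5 under its default 1-color protocol, with background subtraction and error modeling. They deposited linear intensity values (processed signals) without scaling between arrays, and their combined table held the same values in 711467 of 711467 entries. The intensities carry no read depth, and the number of arrays limits the precision.

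Here the log2 of the deposited processed signals was averaged over the 2 spots of a probe, without outlier spots, and each array's 75th percentile was subtracted and their mean added back. limma 3.58.1 (lmFit and eBayes in R 4.3.3) was fitted to 17 arrays in 4 groups without covariates. Two-sided p-values received the Benjamini-Hochberg adjustment across the 20217 probes, with the threshold of 0.01 named in the study's methods. The error-weighted analysis of variance named there was not repeated. Where a probe was above background on no array of a group, its fold is a bound against the lowest signal called above background. Tables and figures were made in Python 3.11.15 (numpy 2.4.6, pandas 2.3.3, scipy 1.17.1), and the fit was tested on simulated data.

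The alternatives were normexp with an offset of 50, median, quantile or no scaling, a filter on dim probes that kept 17517, outlier spots kept, compared groups only, trend and robust moderation, error weights, slide or replicate number as a block, an adjusted p of 0.05, the mean over a gene's probes, and each animal left out. The members and lists were chosen with earlier results of these data known. Genes named are the members, up to 15 pathway genes with the smallest adjusted p, RELA, REL, NFKBIB, NFKBIE, NFKBIZ and BCL3, markers set beside a result, and the 3 genes most like TNF and each member past the threshold. Other pathway genes named, among them TNFRSF1A, PTX3, MMP9 and CXCL8, were chosen after their values were seen. A name was given to 17393 probes (86.0%), and 86 of 91 pathway genes were matched.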

Additional observations from a re-analysis of the deposited data

Results flagged for a closer look

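In 7 of 87 groups of 4 or 5 arrays, over the genes named by rule, 1 array stood apart from the others by a gap that Dixon's 95% limit does not allow, where chance gives about 5% of groups. Of the members, NFKBIA lay at 15.78 on GD165 control replicate 3, below the nearest array at 16.06, and BIRC3 lay at 11.91 on GD165 control replicate 5, above the nearest at 10.91. Both arrays lay above every GD100 control for their gene. Among the pathway genes TNFSF10 was low on GD100 BPA-exposed replicate 1, at 9.87 with the nearest array at 10.24, and IRAK2 was high there, at 6.70 against 6.38. LTB was low on GD100 control replicate 4, at 8.07 against 8.59. NFKBIE was low on GD100 control replicate 2, at 14.12 against 14.31, and high on GD165 control replicate 5, at 14.47 against 14.16.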

How the results depend on the processing

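No age difference of the 10 members changed sign under any of the 14 other settings, in either set. Nor did any with each of the 17 animals left out. Part of this holds by construction. An animal of a group not compared does not enter the estimate. The looser adjusted p threshold, trend and robust moderation and the compared groups only leave the estimate as it was. So does the mean over a gene's probes, as each member had 1 probe. The call for TNF in BPA-exposed fetuses held in 13 of 14 settings (1.24 to 1.94), that for NFKBIA in 13 (0.61 to 0.84), that for IL1B in 12 (1.03 to 1.69) and that for RELB in 11 (0.46 to 0.69). In controls TNF and RELB stayed past the threshold in 14 of 14 settings, NFKBIA and IL6 in 11 and ICAM1 in 8. These tallies include settings that do not test a member's call. The looser adjusted p threshold keeps the main fit and cannot lose a call. The mean over a gene's probes repeats the member's only probe.

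Of the pathway genes named by rule, TNFSF10 and IRF1 kept their calls in both sets in every setting and with every animal left out. Here too the looser threshold could not lose a call. With slide as a fixed block the other calls in BPA-exposed fetuses were lost. With each of the 17 animals left out in turn, the call in controls held in 6 cases for IRAK2, 8 for TNFSF14 and 11 for REL. In BPA-exposed fetuses it held in 10 for GADD45B, 11 for IKBKB and CSF3, 13 for NFKBIZ and 15 for IL1R1. GADD45B, IKBKB, CSF3 and NFKBIZ were each lost without any 1 of the GD165 BPA-exposed animals, with an adjusted p of up to 0.0319, 0.0324, 0.0239 and 0.0213.

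The number of members past the threshold, 5 in controls, was 3 without scaling, 3 with the compared groups only, 2 with slide as a fixed block, 2 with the replicate block and 3 to 6 with an animal left out, the lowest without GD165 control replicate 1. In BPA-exposed fetuses the count of 4 became 2 with the compared groups only, 0 with slide as a fixed block, 7 at an adjusted p of 0.05 and 1 to 5 with an animal left out, namely 1 without GD165 BPA-exposed replicate 3 and 2 without replicate 5. Among all probes the count in controls was 1531 without scaling, 1172 with the compared groups only, 1233 with slide fixed, 958 with the replicate block, 4279 at 0.05 and 1512 to 2370 with an animal left out, the lowest without GD165 control replicate 6. In BPA-exposed fetuses it was 1176 with the compared groups only, 512 with slide fixed, 4255 at 0.05 and 994 to 2131 with an animal left out, where 994 passed without GD165 BPA-exposed replicate 4 and 1181 without replicate 5. The comparisons of BPA with control gave 1 probe at GD100 with the compared groups only, and 0 to 1 with an animal left out at GD100, at GD165 and in the interaction. The cause of these shifts was not tested, beyond the fewer arrays or the looser threshold that some settings hold by construction.

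Replicate numbers did not pair the samples: deviations of same-numbered samples correlated at −0.17 to 0.12. With the replicate block 2 members passed in controls and 3 in BPA-exposed fetuses.

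Small differences that did not pass changed sign. At GD100, BPA-exposed minus control, TNFAIP3 was 0.012 with normexp, IL1B −0.017 with quantile normalization, IL6 −0.013 with error weights, and BIRC3 −0.0060 with median scaling, −7.0e-04 with quantile normalization and −0.015 without scaling. With an animal left out TNFAIP3 ran from −0.071 to 0.061, IL1B from −0.032 to 0.17, RELB from −0.081 to 0.030 and BIRC3 from −0.21 to 0.12. At GD165, TNF was −0.37 with slide fixed. TNFAIP3 was 0.012 with median scaling, 0.0079 with quantile normalization, 0.14 without scaling and 0.25 with the replicate block. IL6 was 0.11 with quantile normalization, 0.091 without scaling, 0.097 with slide fixed and 0.16 with the replicate block. With an animal left out TNF ran from −0.30 to 0.37, NFKBIA from −0.041 to 0.12, TNFAIP3 from −0.14 to 0.12, IL6 from −0.34 to 0.30 and BIRC3 from −0.31 to 0.097. In the age difference of BPA-exposed fetuses RELA was 0.13 without scaling, 0.026 with slide fixed and −0.16 to 0.045 with an animal left out, and NFKBIE was 0.011 without scaling. IL6 lies close to background on the GD100 arrays, which limits its fold.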
